A study of Mus musculus with 6 samples.

Results

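Messenger RNA of 47 genes of the urea cycle and of amino acid breakdown was compared between 3 wild-type and 3 Mettl3-deficient mouse livers, all from mice labelled C57BL/6. The genes were taken from a fixed list of enzymes and carriers, and their symbols were matched to the Entrez identifiers of the count files. All 47 were among the 27179 genes counted, and all 47 passed the filter on low counts that left 14380 genes for testing. Mettl3 encodes the catalytic subunit of the complex that places N6-methyladenosine on RNA. How it was made deficient, and the age, sex and diet of the mice, are stated in none of the sources used here.

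The liver breaks down most amino acids that the body does not use for protein. Each pathway removes the amino group and feeds the carbon skeleton into the citric acid cycle, glucose or ketone bodies. The nitrogen enters the urea cycle, which begins in hepatocyte mitochondria, ends in the cytosol and makes urea from ammonia and aspartate. Many of these enzymes are most abundant in periportal hepatocytes and respond to glucagon, glucocorticoids and feeding.

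The 6 libraries held 31960205 to 36025772 counts. Levels are counts scaled to a common library total (CPM) after scaling with TMM factors, which correct for differences in library composition, and a gene was called when its adjusted p in edgeR's quasi-likelihood test over all 14380 genes was under 0.05. Mettl3 was at 13.4, 14.3 and 12.1 CPM in the wild-type livers and 5.96, 6.60 and 4.94 CPM in the Mettl3-deficient livers (log2 fold change -1.18 ± 0.20 (SE), edgeR adjusted p = 0.00797). Transcripts of 4 Y-linked genes were present in wild-type liver 1 and in Mettl3-deficient livers 1 and 2 and absent from the other libraries, so the groups were unequal in this respect. Wild-type liver 1 also stood apart from the other wild-type livers, with correlations of log2 CPM across genes of 0.943 and 0.939 against 0.983 between those. Albumin (Alb), a defining hepatocyte product, was among the most abundant transcripts in every library, at 108639, 139045 and 141166 CPM in the wild-type livers and 48739, 32061 and 53329 CPM in the Mettl3-deficient livers.

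Of the 47 genes, 24 fell and 0 rose in Mettl3-deficient livers. Over all tested genes, 10.5% fell and 13.3% rose. The log2 fold change was below 0 for 43 of the 47, with a median of -0.89 against 0.012 for all tested genes, and it ran from -2.75 for Cdo1 to 1.003 for Acmsd. Of the 24 genes that fell, 16 did so at least 2-fold by group means. In 33 genes the 3 Mettl3-deficient livers all lay below the 3 wild-type livers, and in 1 gene (Acmsd) all lay above. Among all tested genes these shares were 21.9% and 23.9%. Tested genes with a mean level at least that of the lowest of the 47 numbered 5047, and 857 of them fell. Of the 23 genes that were not called, 9 had an unadjusted p under 0.05 in the same test.

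**Figure D1:**
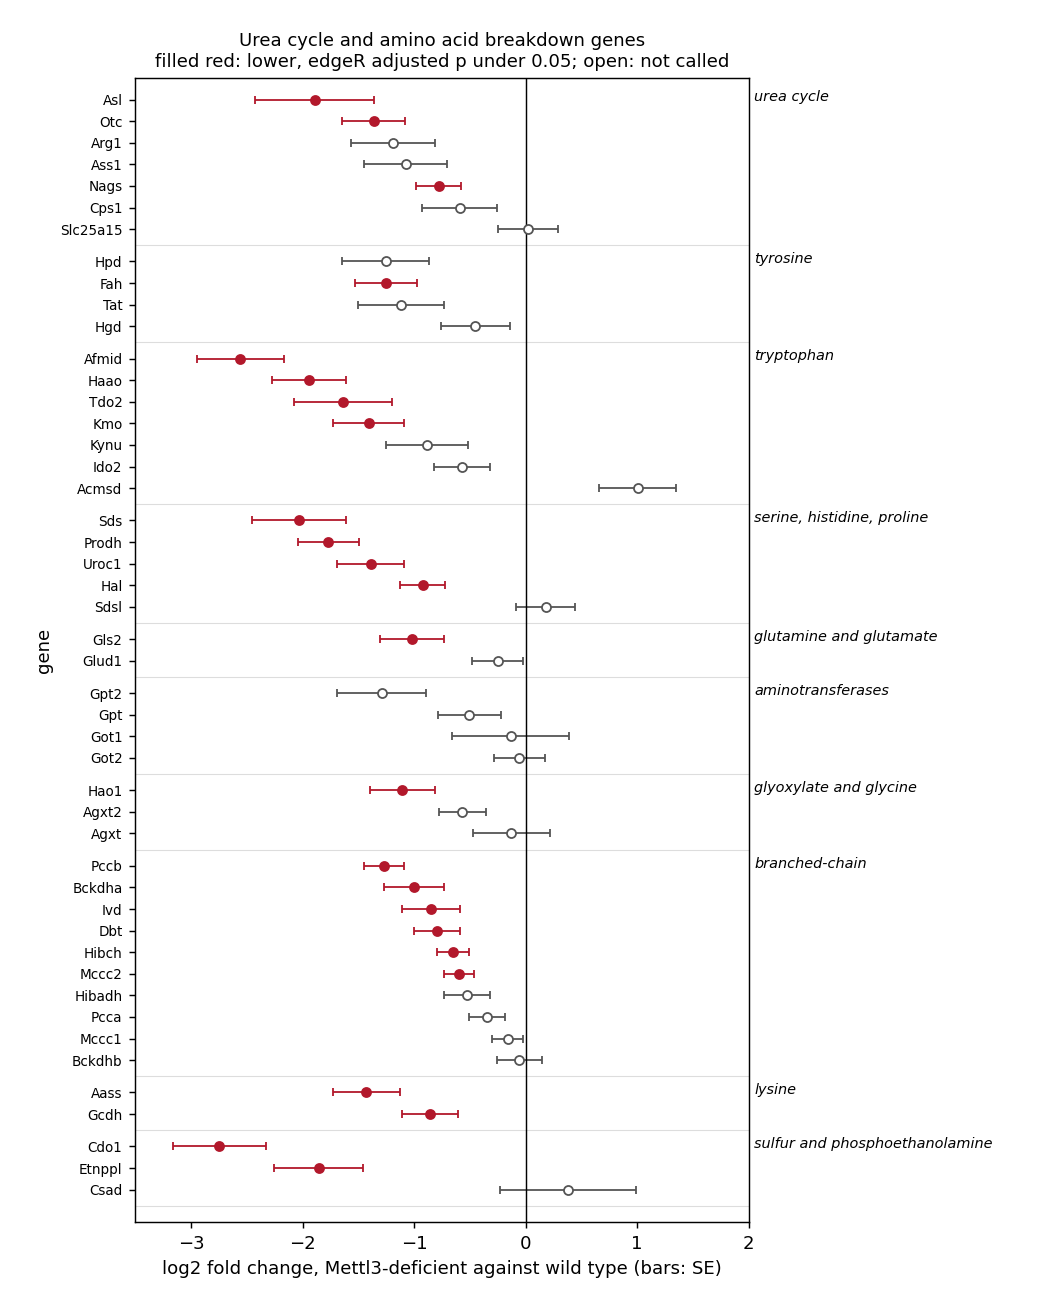
Log2 fold change (x axis, Mettl3-deficient against wild type) of each of the 47 genes (y axis, grouped by pathway), with bars for the SE. Filled points are the 24 genes called lower by edgeR and open points the 23 not called. All but 4 points lie left of 0.

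The size of these changes depended on the scaling. With library size alone, the median over the 14380 genes moved from 0.012 to 0.49 on the log2 scale and that of the 47 genes from -0.89 to -0.44, so the distance between the medians changed little. Under that scaling 14 of the 47 fell, against 4.14% of all tested genes, and 1 (Acmsd) rose. The Mettl3-deficient livers then all lay below the wild-type livers in 16 of the 47, against 7.4% of all tested genes. Of all calls, 89.0% were higher with that scaling and 55.7% with TMM. As a share of all counts, with no scaling factor, the 47 genes held 2.26%, 3.18% and 2.97% of the wild-type libraries and 1.76% to 2.28% of the Mettl3-deficient libraries. Wild-type liver 1 thus lay just below Mettl3-deficient liver 3 in this share. The tissue was sampled in bulk, so fewer hepatocytes and less of these transcripts per hepatocyte cannot be told apart.

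Leaving out 1 library changed the number of calls. Of the 47 genes, 26 fell without wild-type liver 1 and 27 without Mettl3-deficient liver 3. That number was 7 without wild-type liver 2, without wild-type liver 3 or without Mettl3-deficient liver 1, and 15 without Mettl3-deficient liver 2. The genes called in each of these 6 fits were Cdo1, Afmid, Haao, Prodh and Pccb. The median log2 fold change of the 47 genes stayed between -0.99 and -0.78. The share of all tested genes that fell moved as well. It was 10.7%, 3.96% and 4.17% without wild-type livers 1, 2 and 3. Without Mettl3-deficient livers 1, 2 and 3 it was 3.53%, 5.07% and 10.5%.

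**Figure D2:**
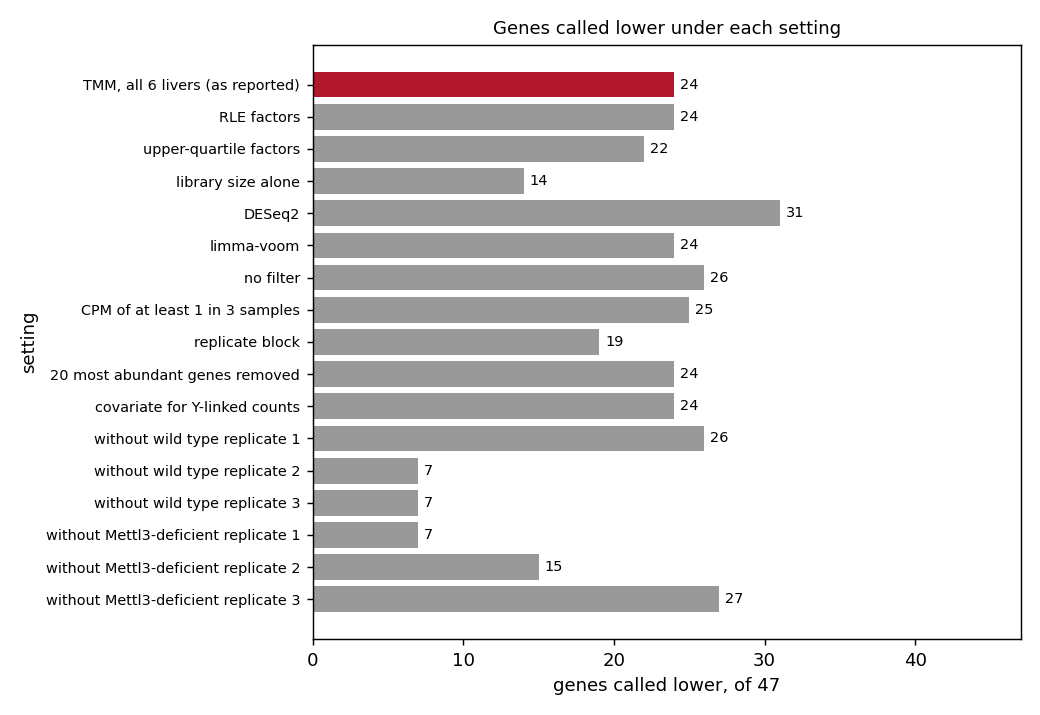
Number of the 47 genes called lower (x axis) under each setting of the analysis (y axis). Values ran from 7, when wild-type liver 2 or 3 or Mettl3-deficient liver 1 was left out, to 31 with DESeq2, against 24 as reported.

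Tryptophan breakdown held some of the largest changes. Its enzymes open the indole ring, convert the product through kynurenine to 3-hydroxyanthranilate, and lead either to NAD or to full oxidation. Of 7 genes 4 fell and 0 rose. The 300 bases around the transcription start of the 4 that fell are shown because these genes belong to 1 pathway. They come from RefSeq (build GRCm38.p6, 250 bases before the start and 50 from it on, 5′ to 3′ on the gene's strand). Capitals mark matches on either strand to CCAAT, letters of the CCAAT box, or to TATAAA, letters of the TATA box. They also mark TTGCNNAA, core letters of sites of the C/EBP family, and CAAAGNNCA, core letters of HNF4 sites. The TATAAA match of Tdo2 lies at bases -229 to -224 from the start and is a match of letters alone. The sequence of Afmid holds no match. The windows of Afmid and Haao lie wholly inside the gene bounds given below. The start used for these genes was thus not at the outer end of the gene, and no other start was examined.

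Tdo2 (chr3:81975679-81975978, minus strand): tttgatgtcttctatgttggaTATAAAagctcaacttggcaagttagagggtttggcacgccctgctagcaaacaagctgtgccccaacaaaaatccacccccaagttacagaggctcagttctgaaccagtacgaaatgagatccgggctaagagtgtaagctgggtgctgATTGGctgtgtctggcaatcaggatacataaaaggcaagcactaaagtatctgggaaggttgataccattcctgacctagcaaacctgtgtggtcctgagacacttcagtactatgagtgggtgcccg
Afmid (chr11:117825669-117825968, plus strand): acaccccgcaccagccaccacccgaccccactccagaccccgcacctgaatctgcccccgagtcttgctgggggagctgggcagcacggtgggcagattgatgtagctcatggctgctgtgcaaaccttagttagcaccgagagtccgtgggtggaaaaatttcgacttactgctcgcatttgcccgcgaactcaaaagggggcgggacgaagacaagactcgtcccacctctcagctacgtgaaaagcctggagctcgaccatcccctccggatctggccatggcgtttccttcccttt
Kmo (chr1:175631943-175632242, plus strand): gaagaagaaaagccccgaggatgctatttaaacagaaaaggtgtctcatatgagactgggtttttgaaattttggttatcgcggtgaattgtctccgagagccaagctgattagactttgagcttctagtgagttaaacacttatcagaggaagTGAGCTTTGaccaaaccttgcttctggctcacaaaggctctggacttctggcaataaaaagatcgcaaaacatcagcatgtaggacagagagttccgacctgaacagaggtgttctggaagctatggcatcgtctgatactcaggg
Haao (chr17:83846741-83847040, minus strand): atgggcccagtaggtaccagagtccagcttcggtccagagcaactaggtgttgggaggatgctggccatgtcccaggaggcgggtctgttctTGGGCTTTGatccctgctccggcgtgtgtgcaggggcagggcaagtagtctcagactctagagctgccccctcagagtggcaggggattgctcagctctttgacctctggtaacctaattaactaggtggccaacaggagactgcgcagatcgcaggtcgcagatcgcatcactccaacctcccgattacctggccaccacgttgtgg

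Tdo2, tryptophan dioxygenase, catalyses the first step (Entrez 56720, chromosome 3, 81958412 to 81975728, GRCm38). It was at 2239.6, 1975 and 1988 CPM in the wild-type livers and 498, 348 and 1146 CPM in the Mettl3-deficient livers (log2 fold change -1.64 ± 0.44 (SE), edgeR adjusted p = 0.0327). The groups did not overlap, but Mettl3-deficient liver 3 was far above the other Mettl3-deficient livers. Ido2, a second enzyme of that step, was at 115, 131 and 124 CPM against 83.9, 54.3 and 111 CPM and was not called (edgeR adjusted p = 0.136).

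Afmid, kynurenine formamidase, acts next (Entrez 71562, chromosome 11, 117825503 to 117839908). It was at 227, 266 and 271 CPM in the wild-type livers and 45.2, 20.4 and 64.3 CPM in the Mettl3-deficient livers and fell 5.89-fold (log2 fold change -2.56 ± 0.39 (SE), edgeR adjusted p = 0.00600). The highest Mettl3-deficient liver was far below the lowest wild-type liver. Afmid overlaps the thymidine kinase gene Tk1 by 585 bases in the RefSeq annotation, and reads in the overlap may be assigned to either gene or to neither.

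Kmo, kynurenine monooxygenase of the outer mitochondrial membrane (Entrez 98256, chromosome 1, 175632193 to 175660853), was at 429.8, 281 and 315 CPM in the wild-type livers and 146, 78.1 and 162 CPM in the Mettl3-deficient livers (edgeR adjusted p = 0.0187). Haao, which opens the ring of 3-hydroxyanthranilate (Entrez 107766, chromosome 17, 83831348 to 83848981), was at 871, 656 and 554 CPM in the wild-type livers and 219, 110.1 and 213 CPM in the Mettl3-deficient livers and fell 3.84-fold (edgeR adjusted p = 0.00855). In both genes Mettl3-deficient liver 2 was lowest. Kynu, kynureninase, was at 244, 198 and 165 CPM against 117, 54.7 and 157 CPM, without overlap between the groups, and was not called (edgeR adjusted p = 0.112).

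Acmsd, the decarboxylase that turns the pathway away from NAD and toward oxidation, was the gene with the highest fold change of the 47 (Entrez 266645, chromosome 1, 127729413 to 127767564). It was at 33.5, 94.1 and 55.6 CPM in the wild-type livers and 126, 106 and 136 CPM in the Mettl3-deficient livers (log2 fold change 1.003 ± 0.34 (SE), edgeR adjusted p = 0.0675). All Mettl3-deficient livers lay above all wild-type livers, and wild-type liver 1 was the lowest of the 6. Acmsd was called higher with DESeq2 (adjusted p = 0.0246), with library size alone (edgeR adjusted p = 0.00933), with the covariate for Y-linked counts (0.0286) and without wild-type liver 2 (0.0299). Calls in this pathway were lost without wild-type liver 1, 2 or 3 or Mettl3-deficient liver 1 or 2 for Tdo2 (edgeR adjusted p up to 0.118), and without wild-type liver 3 or Mettl3-deficient liver 1 for Kmo (up to 0.0581).

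**Figure D3:**
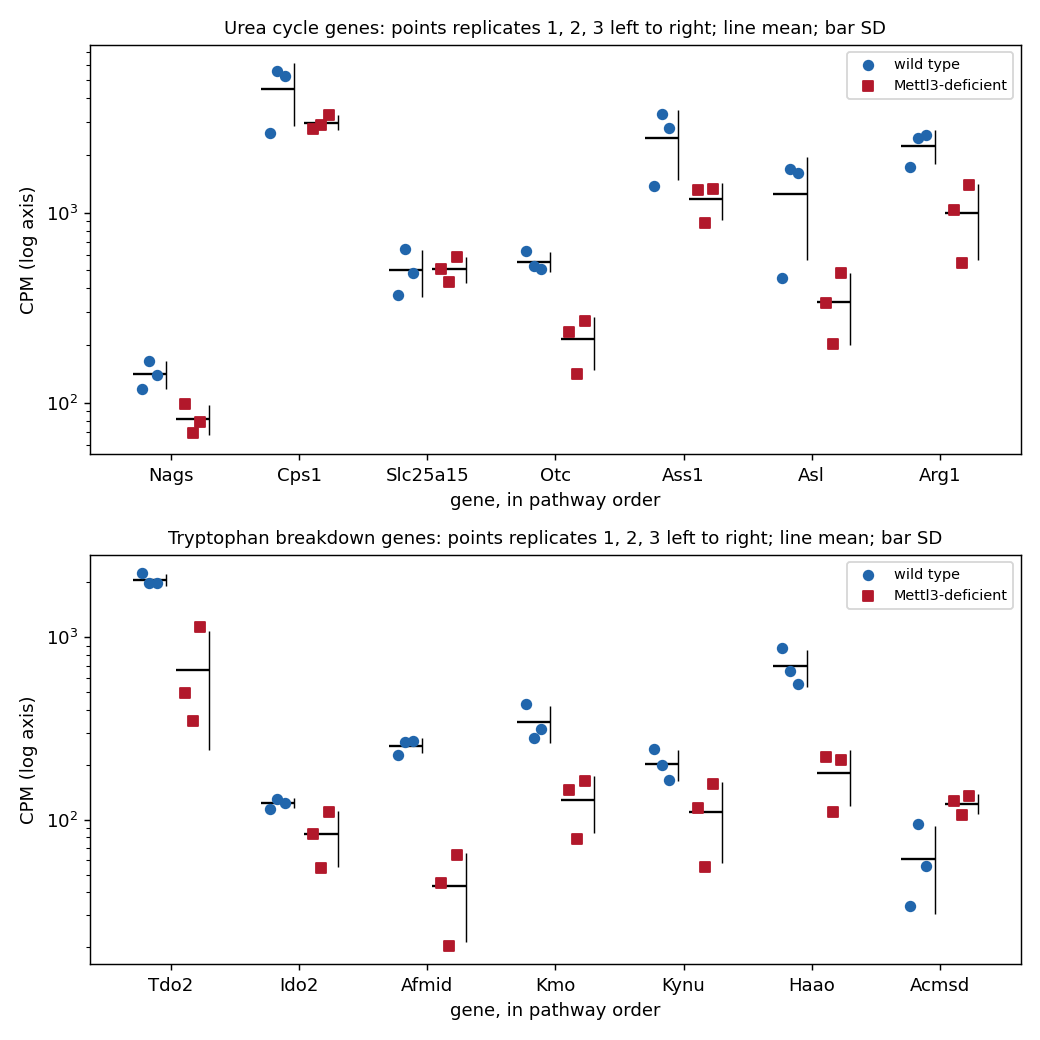
Level in CPM (y axis, log scale) of 7 urea cycle genes (upper panel) and 7 tryptophan genes (lower panel), in pathway order along the x axis. Each point is 1 liver, with replicates 1 to 3 from left to right, lines mark group means and vertical bars the SD (n = 3). Wild-type liver 1 is lowest of its group for all urea cycle genes shown except Otc, and the 3 Mettl3-deficient livers lie below the wild-type livers for 6 of the tryptophan genes and above them for Acmsd.

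In the urea cycle, 3 of 7 genes fell and 0 rose. Otc, ornithine transcarbamylase, which joins carbamoyl phosphate to ornithine (Entrez 18416, chromosome X, 10252230 to 10321024), was at 629, 524 and 504 CPM in the wild-type livers and 236, 141 and 268 CPM in the Mettl3-deficient livers (log2 fold change -1.36 ± 0.28 (SE), edgeR adjusted p = 0.0152). Its wild-type livers lay close together and all Mettl3-deficient livers lay lower. Asl, argininosuccinate lyase (Entrez 109900, chromosome 5, 130011258 to 130024381), was at 455, 1703 and 1615 CPM in the wild-type livers and 334, 203 and 481 CPM in the Mettl3-deficient livers and fell 3.70-fold by the group means (edgeR adjusted p = 0.0383). Wild-type liver 1 was far below the other wild-type livers and lay under Mettl3-deficient liver 3, which made Asl the 1 called gene of the 47 whose groups overlapped. Nags, which makes the activator that Cps1 needs (Entrez 217214, chromosome 11, 102145513 to 102149528), was at 118, 165 and 140.0 CPM against 98.4, 69.01 and 79.1 CPM (edgeR adjusted p = 0.0304).

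The most abundant urea cycle transcripts were not called. Cps1, carbamoyl phosphate synthetase, which commits ammonia to the cycle (Entrez 227231, chromosome 1, 67122426 to 67231267), was at 2629, 5579 and 5255 CPM in the wild-type livers and 2760.0, 2899.7 and 3272 CPM in the Mettl3-deficient livers (log2 fold change -0.59 ± 0.34 (SE), edgeR adjusted p = 0.229). Wild-type liver 1 lay below all Mettl3-deficient livers, and wild-type livers 2 and 3 lay above all of them. Ass1, argininosuccinate synthetase, was at 1376, 3294 and 2772 CPM against 1315, 876 and 1337 CPM (edgeR adjusted p = 0.0707), and Arg1, arginase, which releases urea, was at 1727, 2475 and 2558 CPM against 1037, 541 and 1389.6 CPM (edgeR adjusted p = 0.0553). In both genes the groups did not overlap. Slc25a15, the mitochondrial ornithine carrier, was at 368, 646 and 482 CPM against 504, 429 and 585 CPM, with a log2 fold change of 0.020 ± 0.27 (SE) and overlapping groups.

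Without wild-type liver 1, Ass1 was called lower (log2 fold change -1.37, edgeR adjusted p = 0.0194). With DESeq2, Ass1 and Arg1 were called (adjusted p = 0.00861 and 0.00415). The calls of Asl and Nags were lost without wild-type liver 2 or 3 or Mettl3-deficient liver 1 or 2 (edgeR adjusted p up to 0.121 and 0.109), that of Nags also without Mettl3-deficient liver 3 or with library size alone (0.231), and that of Otc without Mettl3-deficient liver 1 (0.0536). That of Asl was also lost with limma-voom (adjusted p = 0.0543) and that of Nags with the covariate for Y-linked counts (edgeR adjusted p = 0.0510).

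Of the 4 genes of tyrosine breakdown, 1 fell and 0 rose, and all 4 had negative fold changes. Fah, fumarylacetoacetase, the last enzyme of the path (Entrez 14085, chromosome 7, 84585159 to 84605942), was at 714, 872 and 809 CPM in the wild-type livers and 368, 226 and 409 CPM in the Mettl3-deficient livers and fell 2.39-fold (edgeR adjusted p = 0.0179). Tat, tyrosine aminotransferase, the first enzyme and a classical glucocorticoid target, was at 1819, 2735 and 2695 CPM in the wild-type livers and 1034, 1659.9 and 642 CPM in the Mettl3-deficient livers (log2 fold change -1.12 ± 0.38 (SE), edgeR adjusted p = 0.0686). Among the Mettl3-deficient livers Tat was lowest in liver 3, unlike any other of the 47 genes. Hpd, which makes homogentisate, was at 2073, 3764 and 2938 CPM against 1156, 739 and 1781 CPM (edgeR adjusted p = 0.0509), just short of the threshold. Hgd, homogentisate dioxygenase, was at 718, 931 and 769.5 CPM against 602, 375 and 791 CPM, with overlapping groups (edgeR adjusted p = 0.311). Fah lost its call without wild-type liver 2 or 3 or Mettl3-deficient liver 1 (edgeR adjusted p up to 0.0671). DESeq2 called both Tat and Hpd lower (adjusted p = 0.00284 for Hpd). Hpd was also called with limma-voom (adjusted p = 0.0478), with no filter (edgeR adjusted p = 0.0463), with a filter on CPM (0.04999), with the covariate for Y-linked counts (0.0406), without wild-type liver 1 (0.0396) and without Mettl3-deficient liver 3 (0.0275).

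Of 5 genes for enzymes of serine, histidine and proline breakdown 4 fell. Prodh, proline dehydrogenase of the inner mitochondrial membrane (Entrez 19125, chromosome 16, 18071726 to 18089283), was at 258, 468 and 456 CPM in the wild-type livers and 109, 112 and 127 CPM in the Mettl3-deficient livers (log2 fold change -1.77 ± 0.27 (SE), edgeR adjusted p = 0.00601). The Mettl3-deficient livers were nearly equal, and wild-type liver 1 was lowest of its group. Sds, serine dehydratase, which makes pyruvate from serine (Entrez 231691, chromosome 5, 120476547 to 120483932), was at 174, 535 and 491 CPM in the wild-type livers and 108, 75.3 and 110.4 CPM in the Mettl3-deficient livers and fell 4.09-fold (edgeR adjusted p = 0.0146). Sdsl, its paralog, lies next to Sds on the same chromosome (Entrez 257635, chromosome 5, 120458193 to 120472825). It was at 15.1, 32.3 and 29.7 CPM against 28.97, 28.6 and 29.7 CPM, with a log2 fold change of 0.18 ± 0.27 (SE) and an edgeR adjusted p of 0.649. The Mettl3-deficient levels of Sdsl lay within the wild-type range.

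In histidine breakdown, Hal, histidine ammonia-lyase (Entrez 15109, chromosome 10, 93488768 to 93516761), was at 499, 456 and 480.3 CPM in the wild-type livers and 276, 219 and 263 CPM in the Mettl3-deficient livers (edgeR adjusted p = 0.0172). Uroc1, urocanate hydratase, the next enzyme (Entrez 243537, chromosome 6, 90333239 to 90364551), was at 470.3, 715 and 679 CPM in the wild-type livers and 251, 159 and 301 CPM in the Mettl3-deficient livers (edgeR adjusted p = 0.0172). Both genes fell, Hal 1.89-fold and Uroc1 2.62-fold, with no overlap between the groups. Hal and Uroc1 lost their calls without wild-type liver 2 or 3 or Mettl3-deficient liver 1 (edgeR adjusted p up to 0.0634 and 0.0640), Hal also with library size alone (0.0936), and Sds without wild-type liver 2 or Mettl3-deficient liver 1 or 2 (up to 0.0558).

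Among genes that handle glutamate and move amino groups, 1 of 6 fell. Gls2, the liver glutaminase, which releases ammonia from glutamine (Entrez 216456, chromosome 10, 128194635 to 128210004), was at 428, 663 and 539.7 CPM in the wild-type livers and 275, 192 and 338 CPM in the Mettl3-deficient livers and fell 2.03-fold (edgeR adjusted p = 0.0373). Its call was lost without wild-type liver 2 or 3 or Mettl3-deficient liver 1 or 2 (edgeR adjusted p up to 0.127) and with library size alone (0.112). Glud1, glutamate dehydrogenase, was at 1129.7, 1428 and 1254 CPM against 1123, 989 and 1093 CPM and was not called (edgeR adjusted p = 0.445). Of 4 aminotransferase genes 0 were called by edgeR, 1 (Gpt2) had an unadjusted p under 0.05 in that test, and 1 (Gpt2) was called lower by DESeq2.

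Gpt2, the mitochondrial alanine aminotransferase, was at 322, 868 and 854 CPM in the wild-type livers and 220.4, 265 and 349 CPM in the Mettl3-deficient livers (log2 fold change -1.29 ± 0.40 (SE), edgeR adjusted p = 0.0504). Wild-type liver 1 lay inside the Mettl3-deficient range, and without it Gpt2 was called (edgeR adjusted p = 0.00895). Gpt, the cytosolic form, was at 336, 637 and 624 CPM against 382, 353 and 392 CPM (edgeR adjusted p = 0.223) and was likewise called lower without wild-type liver 1 (0.0381). Got1, the cytosolic aspartate aminotransferase, was at 135, 679 and 498 CPM against 378, 293 and 523 CPM, and wild-type liver 1 was the lowest of the 6. Got2, its mitochondrial counterpart, was at 539, 692 and 681 CPM against 623, 529 and 688 CPM. The log2 fold changes were -0.14 ± 0.53 and -0.056 ± 0.23 (SE), both near 0.

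In glyoxylate and glycine metabolism 1 of 3 genes fell. Hao1, glycolate oxidase of peroxisomes, which makes glyoxylate (Entrez 15112, chromosome 2, 134497361 to 134554352), was at 402, 360.3 and 346 CPM in the wild-type livers and 200.1, 102 and 213 CPM in the Mettl3-deficient livers (log2 fold change -1.10 ± 0.30 (SE), edgeR adjusted p = 0.0325). The groups did not overlap. Its call was lost without wild-type liver 1, 2 or 3 or Mettl3-deficient liver 1 (edgeR adjusted p up to 0.0859) and with library size alone (0.0878). Agxt, which removes glyoxylate by transamination with alanine, was at 463, 331 and 266 CPM against 391, 185 and 393 CPM and its groups overlapped (edgeR adjusted p = 0.807). Agxt2, a mitochondrial aminotransferase, was at 175, 145 and 137 CPM against 105, 80.8 and 124 CPM, without overlap (edgeR adjusted p = 0.0842).

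Of 10 genes for breakdown of the branched-chain amino acids 6 fell, by smaller folds. All 10 had negative fold changes, with a median of -0.62, and the 6 fell 1.51- to 2.41-fold. Pccb, the beta subunit of propionyl-CoA carboxylase (Entrez 66904, chromosome 9, 100982032 to 101034940), was at 212, 250.4 and 208 CPM in the wild-type livers and 98.98, 82.3 and 97.1 CPM in the Mettl3-deficient livers and fell the most (log2 fold change -1.27 ± 0.18 (SE), edgeR adjusted p = 0.00483). Both groups of Pccb were tight and far apart. Pcca, which encodes the alpha subunit of the same enzyme, was at 96.6, 98.2 and 105 CPM against 83.2, 66.6 and 86.3 CPM, without overlap and not called (edgeR adjusted p = 0.146).

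The branched-chain ketoacid dehydrogenase, which commits the carbon skeletons to oxidation, has E1 and E2 parts among its components. Bckdha, the E1 alpha subunit (Entrez 12039, chromosome 7, 25629852 to 25658782), was at 188, 238 and 238 CPM against 102, 77.7 and 153 CPM (edgeR adjusted p = 0.0336). Dbt, the E2 core (Entrez 13171, chromosome 3, 116513070 to 116549981), was at 122, 189 and 188 CPM against 94.4, 93.8 and 99.5 CPM (edgeR adjusted p = 0.0312). Both fell, whereas Bckdhb, the E1 beta subunit, was at 80.9, 129 and 119.9 CPM against 108, 101 and 108 CPM with a log2 fold change of -0.058 ± 0.20 (SE). The Mettl3-deficient levels of Bckdhb lay within the wild-type range.

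Further along these paths, Ivd, which oxidises the leucine product isovaleryl-CoA, fell from 267 ± 56.02 to 149 ± 34.9 CPM (SD over 3 livers, edgeR adjusted p = 0.0470). Of the methylcrotonyl-CoA carboxylase subunits, Mccc2 fell from 82.98 ± 5.23 to 54.9 ± 2.61 CPM (edgeR adjusted p = 0.0189), and Mccc1 was at 60.6, 72.3 and 65.4 CPM against 56.4, 58.8 and 62.04 CPM and was not called (edgeR adjusted p = 0.412). In valine breakdown, Hibch fell from 94.5 ± 7.77 to 60.3 ± 3.65 CPM (edgeR adjusted p = 0.0176), and Hibadh, the next enzyme, was at 371, 363 and 318 CPM against 264, 200.1 and 266 CPM without overlap (edgeR adjusted p = 0.101). Of the 6 genes that fell, Mccc2 and Hibch had the smallest spread between wild-type livers, with each of the 3 Mettl3-deficient livers below each wild-type liver. Of the 6 calls, 5 were lost without wild-type liver 2 or 3 or Mettl3-deficient liver 1 (edgeR adjusted p up to 0.117 for Bckdha, 0.110 for Dbt, 0.149 for Ivd, 0.0911 for Mccc2 and 0.0818 for Hibch) and with library size alone, and those of Bckdha, Dbt and Ivd also without Mettl3-deficient liver 2, and that of Dbt also without Mettl3-deficient liver 3. That of Ivd was also lost with upper-quartile factors (edgeR adjusted p = 0.0564).

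Both lysine genes fell. Aass, the bifunctional enzyme that starts lysine breakdown (Entrez 30956, chromosome 6, 23072173 to 23132986), was at 293, 524 and 437 CPM in the wild-type livers and 203, 119 and 143 CPM in the Mettl3-deficient livers and fell 2.69-fold (edgeR adjusted p = 0.0157). Gcdh, glutaryl-CoA dehydrogenase, acts in the path that lysine and tryptophan breakdown share (Entrez 270076, chromosome 8, 84886387 to 84893921). Gcdh was at 603, 766 and 714 CPM in the wild-type livers and 405, 294 and 451 CPM in the Mettl3-deficient livers (edgeR adjusted p = 0.0406). In neither gene did the groups overlap. Both calls were lost without wild-type liver 2 or 3, and that of Gcdh also without Mettl3-deficient liver 1 or 2 or with library size alone (edgeR adjusted p up to 0.0577 for Aass and 0.184 for Gcdh). With upper-quartile factors the edgeR adjusted p of Gcdh was 0.0503.

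The gene with the largest fall was Cdo1, cysteine dioxygenase, which commits cysteine to sulfinate, taurine and sulfate (Entrez 12583, chromosome 18, 46713193 to 46728502). It was at 739, 712 and 697 CPM in the wild-type livers and 85.2, 57.4 and 178 CPM in the Mettl3-deficient livers (log2 fold change -2.75 ± 0.42 (SE), edgeR adjusted p = 0.00590). The coefficient of variation was 2.94% in wild-type and 59.0% in Mettl3-deficient livers, and the highest Mettl3-deficient liver was still far below every wild-type liver. Csad, which converts the product of Cdo1 toward taurine, was at 249.7, 105 and 149 CPM in the wild-type livers and 160.5, 76.7 and 418 CPM in the Mettl3-deficient livers (log2 fold change 0.38 ± 0.61 (SE), edgeR adjusted p = 0.678). Csad had the largest coefficient of variation of the 47 genes within the Mettl3-deficient group, at 81.4%, and its groups overlapped. Etnppl, which breaks down phosphoethanolamine (Entrez 71760, chromosome 3, 130617448 to 130635750), was at 103, 284 and 280.0 CPM in the wild-type livers and 76.7, 45.96 and 61.5 CPM in the Mettl3-deficient livers and fell 3.62-fold (edgeR adjusted p = 0.0163), a call that was lost without wild-type liver 2 or 3 or Mettl3-deficient liver 2 (up to 0.0636).

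**Figure D4:**
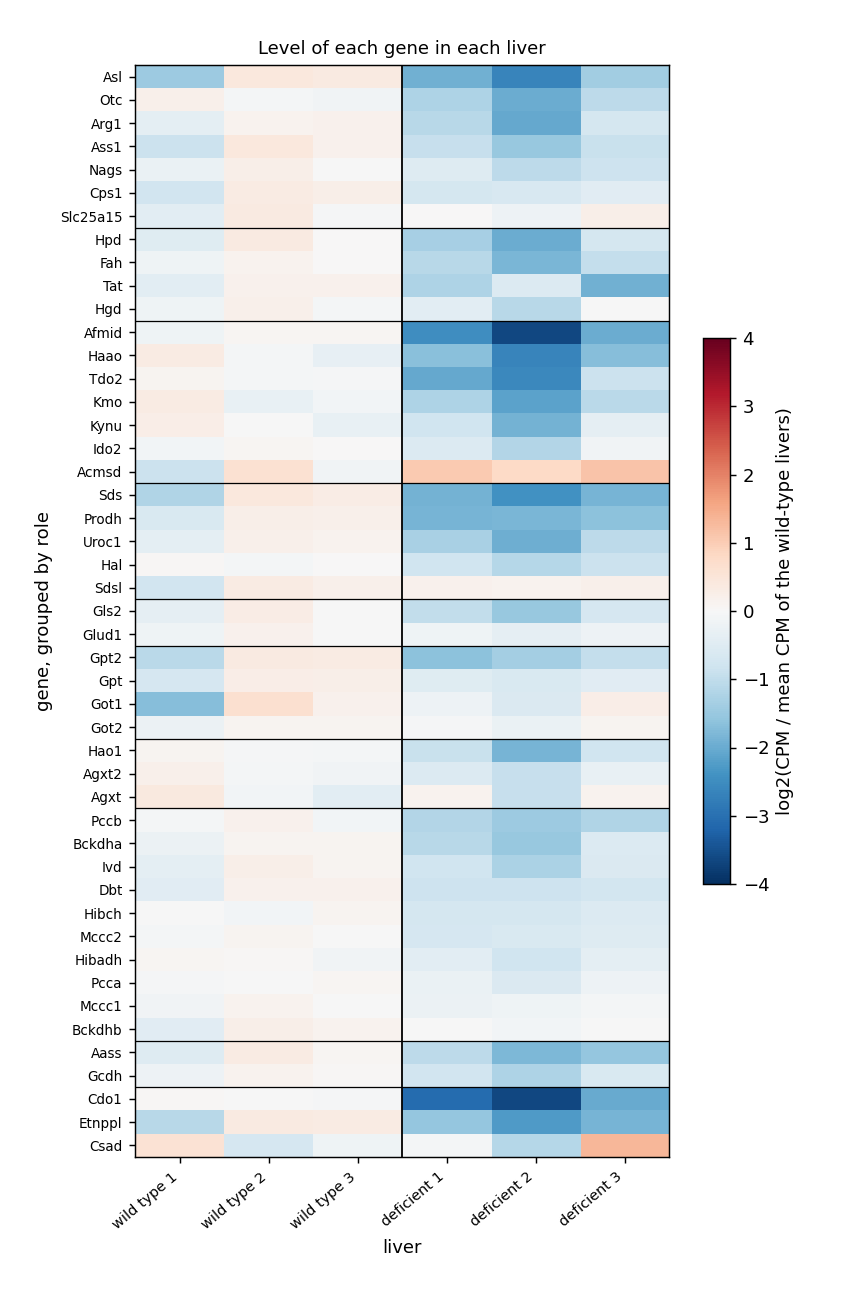
Level of each of the 47 genes (rows, grouped by role and separated by lines) in each liver (columns), as log2 of its CPM over the mean of the wild-type livers. Blue is lower and red higher. Mettl3-deficient liver 2 is the lowest of its group in 41 rows, and wild-type liver 1 is the lowest of its group in 33.

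The livers of a group differed in a shared direction. Mettl3-deficient liver 2 was the lowest of its group in 41 of the 47 genes, and Mettl3-deficient liver 3 was the highest in 39. These counts were not made over all tested genes. The TMM factors of Mettl3-deficient livers 1 to 3 were 1.166, 1.254 and 1.12. A larger factor lowers the CPM of every gene in a library, and the part of the scaling in this order was not tested. Among the wild-type livers, liver 1 was the lowest in 33 genes and the highest in 12, with a median log2 difference of -0.34 from the mean of the other wild-type livers. Its largest deficits were in Got1, Asl, Sds, Etnppl and Gpt2, and the 12 genes in which it was highest included Otc, Tdo2, Kmo, Kynu and Haao. The summed level of 8 Kupffer cell and macrophage markers was 142 CPM in wild-type liver 1, 384 and 447 CPM in the other wild-type livers, and 448, 752 and 427 CPM in Mettl3-deficient livers 1 to 3. That of 8 hepatocyte markers was 160539 to 210789 CPM in wild-type and 79224 to 110374 CPM in Mettl3-deficient livers, lowest in liver 2. Alb was the most abundant of these in every liver and held most of the difference between the sums, and it was the 1 of the 8 called lower. The groups of Apob, Apoa1, Fga and Ttr did not overlap either, whereas Trf, Ahsg and Serpinc1 overlapped, with Trf at 17849.7 ± 4624 CPM in wild-type and 19899 ± 574 CPM in Mettl3-deficient livers (SD, n = 3). Of the 8 Kupffer cell and macrophage markers 2 (Lyz2 and Cd68) rose and 0 fell, against 13.3% and 10.5% of all tested genes. The part of cell composition in the results for the 47 genes was not tested.

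For the other marker lists, the summed ranges in wild-type and Mettl3-deficient livers were 107 to 127 and 93.8 to 255 CPM for 8 cholangiocyte markers, 149 to 238 and 144 to 180.2 CPM for 8 endothelial markers, 397 to 437 and 328 to 646 CPM for 8 stellate and fibroblast markers, and 10.02 to 12.4 and 15.9 to 24.6 CPM for 8 lymphocyte and neutrophil markers. The lymphocyte and neutrophil sums did not overlap between the groups. Of the markers, Sox9 and Muc1 of cholangiocytes and Ptprc and S100a9 of blood cells rose, and Lyve1 of endothelium fell. The other markers of these lists, with all stellate markers, were not called by edgeR. Log2 fold changes were below 0 for 1 of 8 cholangiocyte, 4 of 8 endothelial and 2 of 8 lymphocyte and neutrophil markers. S100a9 was low, with means of 0.554 CPM in wild-type and 2.40 CPM in Mettl3-deficient livers. All markers of these lists were detected. Of 10 periportal markers outside the 47 genes 2 fell and 1 rose, and of 10 pericentral markers 3 fell and 0 rose, with median log2 fold changes of -0.70 and -1.02. Among all tested genes 10.5% fell and 13.3% rose. The counts of these marker lists are small, and a difference between the zones was not tested.

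Between livers with and without Y-linked transcripts, most of the 47 genes changed in the same direction. Mettl3-deficient livers 1 and 2 against wild-type liver 1 gave log2 changes below 0 in 39 genes, and Mettl3-deficient liver 3 against wild-type livers 2 and 3 in 42 genes, with 37 in both. The medians were -0.75 and -0.73. With the Y-linked indicator as a covariate, 24 genes fell and 1 (Acmsd) rose, and 10.5% of all tested genes fell. The size of the change differed for some genes. For Cdo1 it was -3.37 with and -1.99 without Y-linked transcripts, for Tdo2 -2.40 and -0.79, for Sds -0.93 and -2.21, and for Etnppl -0.75 and -2.20. In the test of this difference by an interaction term in edgeR, 0 of the 47 genes had an adjusted p under 0.05, 9 had an unadjusted p under 0.05, and 160 of all tested genes were called. No other tool was run for it, and 1 arm on each side held a single liver.

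**Figure D5:**
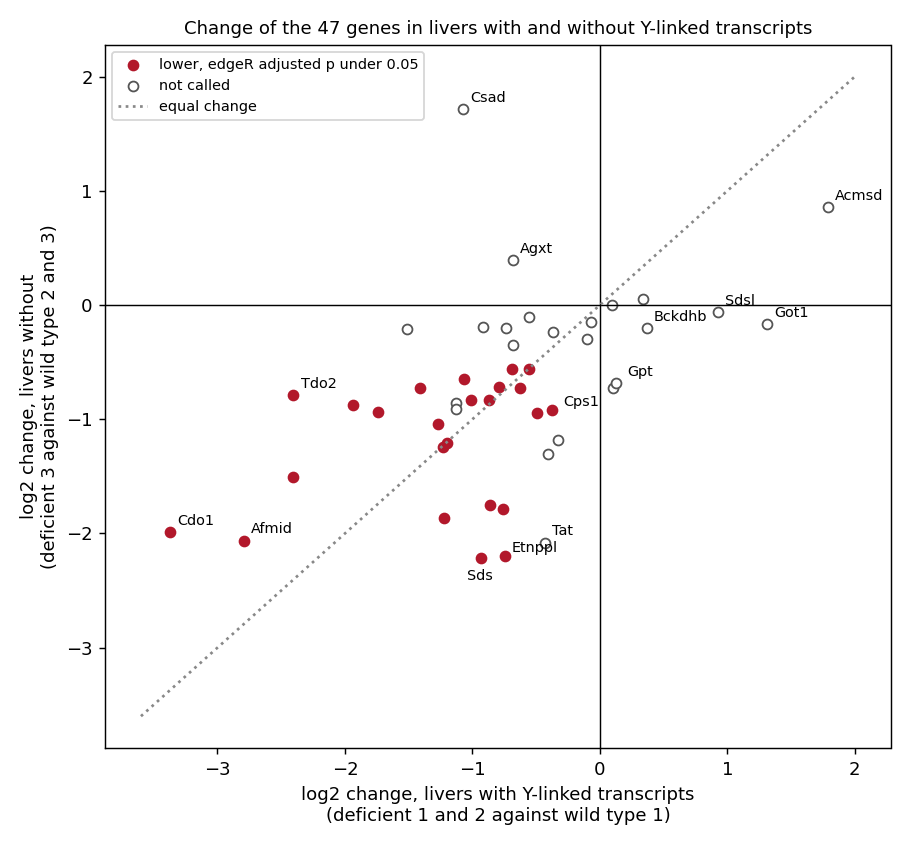
Log2 change of each of the 47 genes in livers with Y-linked transcripts (x axis, Mettl3-deficient livers 1 and 2 against wild-type liver 1) and without them (y axis, Mettl3-deficient liver 3 against wild-type livers 2 and 3). Filled points are genes called lower in the fit over all 6 livers, the dotted line marks equal change, and 37 points lie below 0 on both axes.

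Levels per kilobase of merged exon length (RPKM, from TMM-scaled CPM and GENCODE M21 gene models) gave the order of the genes. In wild-type livers the highest was Hpd at 1374 ± 397 RPKM (SD, n = 3), followed by Ass1 at 1028 ± 411, Arg1 at 1011 ± 205, Tat at 1005 ± 215 and Cps1 at 808 ± 291 RPKM. These 5 did not differ from their neighbours in the order beyond their spread. Tdo2 at 533 ± 38.4 and Cdo1 at 435 ± 12.8 RPKM came next, and Mccc1 was lowest at 6.04 ± 0.541 RPKM. In Mettl3-deficient livers the same 5 genes led, with Hpd at 576 ± 246 and Cps1 at 536 ± 47.6 RPKM. Cdo1 moved from place 7 to place 20, Haao from 20 to 30 and Afmid from 30 to 44 of 47. The order is approximate, since it depends on merged exon length and no source used here names the gene models used for counting. For Mccc1 that length was 10952 bases, at a mean of 66.1 CPM in wild-type livers. For Mccc2 it was 2802 bases, at 83.0 CPM and 29.6 RPKM.

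The genes were also sorted by where their products act. Of 24 genes for mitochondrial proteins 14 fell, with a median log2 fold change of -0.79. Of 21 for cytosolic proteins 9 fell, with a median of -1.12. Among all tested genes 10.5% fell, and a difference between the compartments was not tested. The other genes were Hao1, which is peroxisomal, and Agxt, whose product is found in peroxisomes and mitochondria. Promoter windows were in the table for 36 of the 47 genes. TTGCNNAA was found in 4 of the 19 windows of genes that fell, in 1 of the 17 others and in 10.1% of 18458 windows of counted genes. The corresponding values were 3, 2 and 5.88% for CAAAGNNCA, 7, 8 and 39.1% for CCAAT, and 2, 3 and 13.1% for TATAAA. Such matches describe letters and no binding was measured. GGACT, a common form of the methylated motif, occurred at a median of 0.838 per kilobase in the longest coding transcript of the 24 genes that fell, 1.18 in the other 23 and 1.06 in the 13135 tested genes with such a transcript. N6-methyladenosine itself was not measured in these libraries.

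A wider list of 60 further genes of amino acid metabolism showed the same direction. Of its 56 tested genes 24 fell and 1 rose, with a median log2 fold change of -0.65. Across all tested genes 10.5% fell and 13.3% rose. The 8 with the smallest p among those that fell were Shmt1, Hsd17b10, Ahcy, Prodh2, Gcat, Bcat2, Kyat1 and Gnmt. Ahcy, which hydrolyses S-adenosylhomocysteine, the product of methyltransferases, was at 2820.3 ± 1078 CPM in wild-type and 635 ± 158 CPM in Mettl3-deficient livers (SD over 3 livers, edgeR adjusted p = 0.00933), and Gnmt, a glycine methyltransferase, fell from 2517 ± 409.9 to 817 ± 308 CPM (edgeR adjusted p = 0.0168). Shmt1, which exchanges serine and glycine, fell 2.56-fold, and Prodh2, which acts on hydroxyproline, 3.10-fold. Hsd17b10 of isoleucine breakdown, Gcat of threonine breakdown, the branched-chain aminotransferase Bcat2 and the kynurenine aminotransferase Kyat1 fell 2.23-, 2.02-, 1.82- and 2.48-fold.

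Qprt, which makes the NAD precursor from quinolinate, the product of the branch that Acmsd competes with, was the 1 gene that rose. It was at 116, 107 and 103 CPM in the wild-type livers and 171, 157 and 165 CPM in the Mettl3-deficient livers (log2 fold change 0.60 ± 0.16 (SE), edgeR adjusted p = 0.0314). Both groups were tight and did not overlap. Its call was lost without wild-type liver 2 or 3 or Mettl3-deficient liver 1 (edgeR adjusted p up to 0.129). Those of Bcat2 and Kyat1 were lost without Mettl3-deficient liver 1 (0.0502 and 0.0521), that of Gnmt also without wild-type liver 2 (up to 0.0632), and that of Bcat2 with library size alone (0.0791). The number of genes of the wider list that fell was 9 with library size alone, against 4.14% of all tested genes. It was 8 and 11 without wild-type livers 2 and 3, and 7 and 14 without Mettl3-deficient livers 1 and 2. In those fits without 1 library, 3.53% to 5.07% of all tested genes fell.

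Of 9 genes for regulators known to act on amino acid breakdown, 5 fell and 0 rose, against 10.5% and 13.3% of all tested genes. Nr3c1, the glucocorticoid receptor, was at 104, 106 and 99.9 CPM in the wild-type livers and 46.8, 42.6 and 49.2 CPM in the Mettl3-deficient livers (edgeR adjusted p = 0.00283), with tight groups. Klf15, a transcription factor of amino acid breakdown, was at 203 ± 44.6 CPM in wild-type and 71.6 ± 17.5 CPM in Mettl3-deficient livers (SD over 3 livers, edgeR adjusted p = 0.00805), and both genes kept their calls without any 1 library. Cebpa, Hnf4a and Gcgr, the glucagon receptor, fell 2.65-, 2.24- and 1.71-fold (edgeR adjusted p = 0.0159, 0.0232 and 0.0495). The log2 fold changes of Cebpb, Foxa2, Creb3l3 and Ppargc1a were -0.19, -0.20, -0.39 and -0.46, and these genes were not called. The calls of Hnf4a and Gcgr were lost with library size alone and those of Cebpa, Hnf4a and Gcgr when wild-type liver 2 or Mettl3-deficient liver 1 was left out (edgeR adjusted p up to 0.0681, 0.0874 and 0.152). Hnf4a and Gcgr also lost theirs without wild-type liver 3 or Mettl3-deficient liver 2, and Gcgr without wild-type liver 1. Scaled by library size, the log2 fold changes of Cebpb, Foxa2, Creb3l3 and Ppargc1a were 0.31, 0.28, 0.066 and 0.0081.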

How the data were processed

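Total RNA of 6 livers was depleted of ribosomal RNA and sequenced from directional libraries, per the labels' protocols. The authors deposited unnormalised read counts, 1 value for each Entrez gene identifier, made with HISAT2 and featureCounts on mm10, per the submitters' processing notes. With versions, annotation and strand setting not given in the sources used here, reads of overlapping genes may be shared (6 of the 47 genes overlap a coding gene). Symbols and coordinates came from RefSeq GRCm38.p6, the same build, which matched 25275 of 27179 identifiers.

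The test was edgeR 4.0.16 (R 4.3.3, robust quasi-likelihood F test, two-sided, TMM, group as the only term) over 14380 genes kept by filterByExpr (minimum count 10, minimum total 15), with Benjamini-Hochberg adjustment over all of them. DESeq2 1.42.0, limma-voom (limma 3.58.1) and other settings were alternatives. Standard errors came from the fold change and F. The scripts were tested on simulated data, where they called 85 of 100 genes changed 4-fold and 24 of 100 changed 2-fold. A missing call thus does not show that a gene was unchanged. The genes and lists were chosen with earlier results of these data known. All 47 genes are named, with the 8 called genes of the wider list with the smallest p in each direction, the regulators and Mettl3. A listed regulator is not reported here. Tk1, Alb and the cell type markers named were chosen after their values were seen. The labels number livers and do not say that each came from its own animal, so the p-values cover variation among these 6 samples, which may be technical. No 2 libraries of a group agreed within sampling noise (chi-square per degree of freedom 17.1 or more).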

Additional observations from a re-analysis of the deposited data

Results flagged for a closer look

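In 6 of the 47 genes every Mettl3-deficient liver with Y-linked transcripts lay on one side of wild-type liver 1, while Mettl3-deficient liver 3 lay on the other side of wild-type livers 2 and 3. The difference between these changes, from the interaction term in edgeR on the log2 scale, was -2.79 for Csad (unadjusted p = 0.00311, adjusted p = 0.0896) and 0.99 for Sdsl (unadjusted p = 0.00406, adjusted p = 0.0963). It was 0.83 for Cps1, 0.81 for Gpt, -1.08 for Agxt and 0.57 for Bckdhb, with edgeR adjusted p-values of 0.396, 0.283, 0.370 and 0.256. None of the 6 passed the threshold. Csad, which makes the taurine precursor hypotaurine, had log2 changes of -1.07 in livers with and 1.71 in livers without Y-linked transcripts. For Sdsl the change without Y-linked transcripts was -0.061, and for Cps1 and Gpt the changes with them were 0.11 and 0.13. The 1 wild-type liver with Y-linked transcripts is also the liver that stood apart from the other wild-type livers, so these cannot be told apart.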

How the results depend on the processing

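The scaling and single libraries mattered most. With library size alone, 14 of the 47 genes fell and 1 rose, and the median log2 fold change was -0.44. Without overlap, 16 genes lay below wild type (7.4% of all genes, an alternative added after the data were seen). Of the wider list 9 genes fell and 6 rose. Of all 14380 tested genes 4.14% fell, and of the 5405 called 89.0% were higher. This scaling also gave values above 0 for Hgd (0.0082), Glud1 (0.23), Got1 (0.35), Got2 (0.42), Agxt (0.32), Bckdhb (0.42), Mccc1 (0.31) and Pcca (0.12). DESeq2 and the covariate for Y-linked counts each called 1 gene higher (Acmsd). Got1 was at 0.12 with limma-voom, and with the covariate Got1, Got2 and Bckdhb were at 0.57, 0.049 and 0.082. Over the fits without 1 library, the number of genes that fell was 7 to 27, the number that rose 0 to 1, and the median -0.99 to -0.78. Genes of the wider list that fell numbered 7 to 26 and those that rose 0 to 3. All calls numbered 1382 to 3514, and 3.53% to 10.7% of all tested genes fell. In those fits Slc25a15 ran from -0.16 to 0.25, Sdsl from -0.094 to 0.38, Agxt from -0.30 to 0.15, Got1 from -0.57 to 0.33, Got2 from -0.16 to 0.040, Bckdhb from -0.24 to 0.071 and Csad from -0.50 to 0.78. The cause of these shifts was not tested.

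With the replicate number as a block, 19 of the 47 genes fell, against 8.03% of all tested genes. In that fit 20 genes of the wider list fell and 0 rose, and Got1 was at 0.11. The block ended the calls of Asl (edgeR adjusted p = 0.0656), Nags (0.0638), Gls2 (0.0711), Dbt (0.0520), Ivd (0.0768) and Gcdh (0.0847) and added Gpt2 (0.0459). The numbers share no stated source: deviations of same-numbered livers from their group means correlated at 0.0839, -0.0174 and 0.0335 across genes, and not every liver correlated best with its own number. RLE factors and removal of the 20 most abundant genes changed no call of the 47. The lowest level of the 47 genes in any library was 15.1 CPM, and the part of depth in the missing calls was not tested.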

Other observations

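Afmid and its neighbour Tk1, which overlap by 585 bases, both fell. Tk1 is best known as a thymidine kinase of dividing cells. Tk1 was at 37.6, 78.5 and 74.9 CPM in the wild-type livers and 25.7, 12.95 and 27.1 CPM in the Mettl3-deficient livers (log2 fold change -1.54 ± 0.36 (SE), edgeR adjusted p = 0.0226). All 6 genes of a proliferation list (Mki67, Top2a, Ccnb1, Cdk1, Birc5 and Aurka) rose in the same livers, against 13.3% of all tested genes. Their summed level was 7.35 to 20.7 CPM in wild-type and 65.2 to 123 CPM in Mettl3-deficient livers. The call of Tk1 was lost without wild-type liver 2 or 3 or Mettl3-deficient liver 1 or 2 (edgeR adjusted p up to 0.0724). How many of the Tk1 counts came from reads of Afmid was not tested.

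Subunits of the same enzyme are given side by side. Pccb had a log2 fold change of -1.27 ± 0.18 (SE) and Pcca one of -0.35 ± 0.16, and Mccc2 -0.60 ± 0.13 and Mccc1 -0.16 ± 0.14. Bckdha was at 222 ± 28.9 CPM in wild-type and 111 ± 38.2 CPM in Mettl3-deficient livers (SD, n = 3), and Bckdhb at 109.9 ± 25.5 CPM in wild-type and 106 ± 4.15 CPM in Mettl3-deficient livers. In each pair 1 subunit was called lower by edgeR and the other was not. The differences within pairs were not tested.

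The share of all counts needs no scaling factor. Tryptophan genes held 0.318% ± 0.0418 of counts in wild-type and 0.154% ± 0.0636 in Mettl3-deficient livers (SD, n = 3). Serine, histidine and proline genes held 0.162% ± 0.0323 and 0.0858% ± 0.00995. Aminotransferase genes held 0.193% ± 0.0654 and 0.195% ± 0.0204, and the glutamine and glutamate genes 0.153% ± 0.0177 and 0.157% ± 0.00792. The ratio of the wild-type to the Mettl3-deficient mean was 2.11 for sulfur and phosphoethanolamine genes, 2.06 for tryptophan, 1.89 for serine, histidine and proline, 1.53 for tyrosine, 1.49 for lysine, 1.34 for the urea cycle, 1.16 for branched-chain, 1.07 for glyoxylate and glycine, 0.986 for aminotransferase and 0.977 for glutamine and glutamate genes. Differences between pathways were not tested.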
